A study of Mus musculus with 10 samples.

Results

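Pericytes, vascular smooth muscle cells and the myoepithelial cells of the mammary gland share a contractile gene program, and 10 of its genes were described here in mouse mammary tumors: Acta2, Actg2, Myh11, Mylk, Cnn1, Tagln, Oxtr, Trp63, Rgs5 and Mcam. They were found by gene name in a table of sorted tumor macrophages and a table of whole tumors, out of 24616 genes listed in either. The macrophage table lists 9 of them and does not list Actg2, and the tumor table lists all 10.

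The tumors arose in MMTV-PyMT mice of the B6 strain, in which a viral promoter active in mammary epithelium drives the polyoma middle T oncogene. The cKO mice carried Cxcr4 fl/fl and LysM-Cre, a Cre expressed in myeloid cells, and the controls were Cxcr4 fl/fl littermates with no Cre, so that floxed Cxcr4 and the oncogene were common to both groups. All mice were 15 weeks old. Macrophages sorted on F4/80 and CD11b came from 3 cKO mice (725, 746 and 867) and 3 controls (706, 720 and 775), and whole snap-frozen tumors were sequenced for cKO mice 725 and 746 and controls 706 and 720 (2 and 2 libraries). LysM-Cre is not specific to macrophages among myeloid cells. Each library is a different mouse within its table. In the labels, tumors are described as pairs chosen by size, with no partner named.

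Values are in CPM, read counts scaled so that the listed genes of a library sum to 1e+06. Low values step by the worth of 1 read, which put the depth of macrophage libraries at 14.4 to 25.2 M reads and that of tumor libraries at 34.2 to 53.4 M reads (M, 1e+06), so that a gene listed at 0 allows up to 0.119 to 0.208 CPM and 0.0562 to 0.0878 CPM (3 reads, counting error only). Cxcr4, the targeted gene, held 41.9, 165.2 and 24.1 CPM in the macrophage libraries labelled cKO (725, 746, 867) and 14.4, 135 and 54.3 CPM in the control libraries (706, 720, 775). The log2 difference was 0.21, with an SE of 0.59 (limma adjusted p = 0.9998). In tumors it held 47.9 and 57.6 CPM in the libraries labelled cKO and 29.8 and 33.4 CPM in controls. The mean of the targeted transcript was higher with the cKO label in both tables, without passing the test, so every direction below belongs to the label and not to a measured loss of Cxcr4. The 8 markers of macrophages summed to 2013 to 2380 CPM in sorted cKO cells and 1048 to 2217 CPM in sorted control cells, against 104 to 126 CPM in cKO tumors and 120.4 to 139.7 CPM in control tumors. The sorted cells also held luminal epithelial transcripts, 2925 to 3537 CPM over 9 genes in cKO and 3051 to 4086 CPM in controls.

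In contractile cells, myosin light chain kinase (Mylk) phosphorylates the myosin light chain when calcium rises, and smooth muscle myosin (Myh11) then slides on actin filaments built from Acta2 or Actg2. Myoepithelial cells use this machinery to eject milk when oxytocin binds its receptor Oxtr, and pericytes use it around small vessels. Serum response factor binds the CArG box in the promoters of many of these genes and acts with cofactors.

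The promoter of Acta2 is shown because it holds near matches to that motif, and that of Rgs5 because its values were the most spread among the members in macrophages. Both lines give the 250 bases before the RefSeq transcription start (GRCm38.p6), 5′ to 3′ on the strand of the gene, with capitals for matches to a relaxed CArG box, at most 1 G or C in its central 6 letters.
Acta2 (chr19:34255374-34255623, minus strand): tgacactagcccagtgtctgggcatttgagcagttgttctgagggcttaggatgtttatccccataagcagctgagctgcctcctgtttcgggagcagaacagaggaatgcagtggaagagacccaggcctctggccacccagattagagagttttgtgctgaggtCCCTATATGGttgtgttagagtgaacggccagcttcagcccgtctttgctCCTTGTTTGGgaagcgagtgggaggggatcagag
Rgs5 (chr1:169655251-169655500, plus strand): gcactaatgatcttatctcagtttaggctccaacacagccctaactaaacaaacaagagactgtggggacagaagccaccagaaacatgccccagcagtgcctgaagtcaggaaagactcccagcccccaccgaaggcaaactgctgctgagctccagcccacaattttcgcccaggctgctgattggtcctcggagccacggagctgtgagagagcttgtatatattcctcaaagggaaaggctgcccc
The GENCODE gene body of Acta2 begins upstream of this RefSeq start, inside the window. The motif was searched on both strands, which hold it at the same places. RefSeq windows of 300 bases, 250 before and 50 after the start, were found for 6 members (Acta2, Cnn1, Mcam, Mylk, Oxtr, Rgs5). No member held the strict motif, which 1.63% of 32851 windows held, and Acta2 held 2 relaxed matches, CCCTATATGG with its first base at -84 and CCTTGTTTGG at -34, a form in 9.98% of windows. A window without a match says only that these letters are not in it.

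By position in GRCm38 (GENCODE annotation, by gene identifier), Acta2 (ENSMUSG00000035783) spans 34241090 to 34255590 of chromosome 19 (minus strand), Rgs5 (ENSMUSG00000026678) on the plus strand of chromosome 1 from 169655501 to 169695813, Trp63 (ENSMUSG00000022510) on the plus strand of chromosome 16 from 25683763 to 25892102 and Mcam (ENSMUSG00000032135) on the plus strand of chromosome 9 from 44134469 to 44142727. Myh11 and Mylk lie on chromosome 16, Cnn1 and Tagln on chromosome 9, and Oxtr and Actg2 on chromosome 6. Tagln overlaps 109 bases of the protein-coding gene Pcsk7 on the other strand (36.3 CPM on average in macrophages), and the antisense gene Gm48529 overlaps 3628 bases of it; without a statement of strand, their reads cannot be told from those of Tagln, which makes its values uncertain. Mcam shares 72 bases with Gm10687 (1.73 CPM on average in macrophages), and the same limit applies.

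In sorted macrophages the contractile genes averaged from 0.676 CPM (Cnn1) to 21.7 CPM (Acta2), and none passed the test between genotypes. Acta2, the actin of smooth muscle and myoepithelium, held 20.8, 21.2 and 33.5 CPM in cKO and 9.03, 8.41 and 37.3 CPM in controls; the control of mouse 775 lay above every cKO library, so the groups overlapped. Its mean was 25.2 ± 7.26 CPM in cKO and 18.2 ± 16.5 CPM in controls (SD, n = 3 each), a log2 difference of CPM + 1 of 0.74 (SE 0.49, 95% interval -0.29 to 1.76, limma adjusted p = 0.9998). The difference was 0.38 without control 720 and 1.39 without control 775. Myh11 held 0.836, 2.35 and 10.3 CPM in cKO and 0.208, 1.65 and 5.65 CPM in controls. Mylk held 15.8, 8.65 and 49.3 CPM in cKO and 5.07, 12.6 and 29.7 CPM in controls. For both, one library of each genotype, cKO 867 and control 775, was far above the rest. Tagln, which encodes the actin-binding protein transgelin, held 3.55, 13.5 and 16.3 CPM in cKO and 6.57, 3.85 and 14.4 CPM in controls. The log2 differences of Myh11, Mylk and Tagln were 0.57, 0.56 and 0.34, with SEs of 0.86, 0.59 and 0.64. Cnn1, encoding the actin-binding protein calponin, held 1.62 CPM in cKO 725 and 2.43 CPM in control 775 and was listed at 0 in the other 4 libraries; its mean under 1 CPM kept it out of the test.

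Of the myoepithelial genes, Oxtr held 4.38, 3.50 and 14.8 CPM in cKO and 5.97, 7.75 and 12.3 CPM in controls. Its log2 difference was -0.36, with an SE of 0.63 (limma adjusted p = 0.9998), and ran from -0.92 without cKO 867 to -0.016 without cKO 746. Trp63, the transcription factor that basal epithelial cells need for their identity, held 3.88, 9.31 and 8.27 CPM in cKO and 6.11, 6.05 and 9.83 CPM in controls, a difference of -0.07 (SE 0.60). For both genes the groups overlapped.

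Of the pericyte genes, Rgs5, a regulator of G-protein signalling that marks pericytes, held 9.93, 12.46 and 127 CPM in cKO and 2.08, 3.03 and 43.7 CPM in controls. Libraries cKO 867 and control 775 carried most of its signal, and control 775 was above cKO 725 and 746. The mean was 49.9 ± 67.1 CPM in cKO and 16.3 ± 23.8 CPM in controls (SD, n = 3 each), a log2 difference of 1.70 (SE 0.84, interval -0.05 to 3.44, limma adjusted p = 0.9998). It was 0.56 without cKO 867 and 2.92 without control 775. Its unadjusted limma p, 0.0563, came under 0.05 in 5 of the alternatives, all without a change of the adjusted call. Mcam, the adhesion molecule CD146 of pericytes and endothelium, held 22.4, 41.0 and 41.4 CPM in cKO and 19.4, 36.1 and 14.7 CPM in controls (difference 0.61, SE 0.40; 0.34 without control 775 and 0.96 without control 720). Here the control of mouse 775 was the lowest library, unlike for Acta2 and Rgs5.

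**Figure D1:**
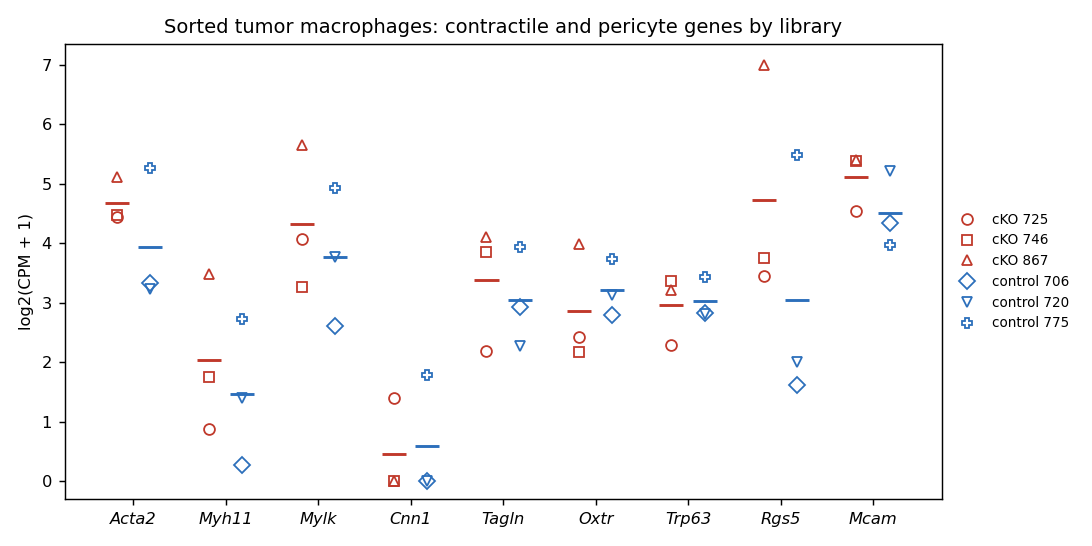
Level of each gene in sorted macrophages, as log2(CPM + 1), with one point per library (red cKO, left; blue control, right) and bars for group means. cKO 867 and control 775 stand above the other libraries for Rgs5, Mylk and Myh11, while the groups overlap for every gene.

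Of the 9 listed members, 8 were tested, 6 with a positive and 2 with a negative difference, and their median was 0.56, against 0.05 over the 16304 genes tested. None passed the adjusted threshold of 0.05, which 0% of all genes passed. None had an unadjusted p under 0.05 in either direction, which 1.53% of all genes had as higher and 1.09% as lower in cKO. None had groups that did not overlap, against 3.78% of genes with every cKO library above and 3.45% with every cKO library below the controls. The median of the members was -0.06 without cKO 867 and 0.97 without control 775.

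The 2 high libraries were also high for genes of other stromal cells. All 9 listed members peaked in cKO 867 (6) or control 775 (3), and the share of all genes that did so was not computed. Of these peaks, Mcam (41.4 CPM) and Trp63 (9.83 CPM) were close to cKO 746, at 41.0 and 9.31 CPM. Cnn1 was listed at 0 in cKO 867, and Mcam was lowest in control 775. The 9 endothelial markers, among them Pecam1 and Cdh5, summed to 43.9, 33.5 and 391 CPM in cKO (725, 746, 867) and 18.1, 32.3 and 167 CPM in controls (706, 720, 775), and the 9 fibroblast markers to 59.0, 140.2 and 1183 CPM in cKO and 65.0, 90.0 and 429 CPM in controls. Endothelial genes at 0 numbered 4 in control 706, 2 in control 720, 1 each in cKO 725 and 746, and none in the other libraries. On average over its genes, the log2 deviation from the 6-library mean was 1.04 in cKO 867 and 0.74 in control 775 for the members, 2.34 and 1.48 for endothelial genes and 2.02 and 1.01 for fibroblast genes. Macrophage markers summed to 1048 CPM in control 775 but to 2165 CPM in cKO 867. For the 10 other pericyte genes it was 0.65 in cKO 867 and 0.29 in control 775, against -0.45 and 0.42 in cKO 725 and 746 and -0.47 and -0.45 in controls 706 and 720. Their summed level was 194, 374 and 322 CPM in cKO and 287, 340.1 and 262 CPM in controls, and Anpep and Notch3, named after their values were seen, made 48.5% and 42.1% of that sum. Their part in the member values was not tested. In bulk samples, fewer cells of a type and less RNA per cell cannot be told apart.

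**Figure D2:**
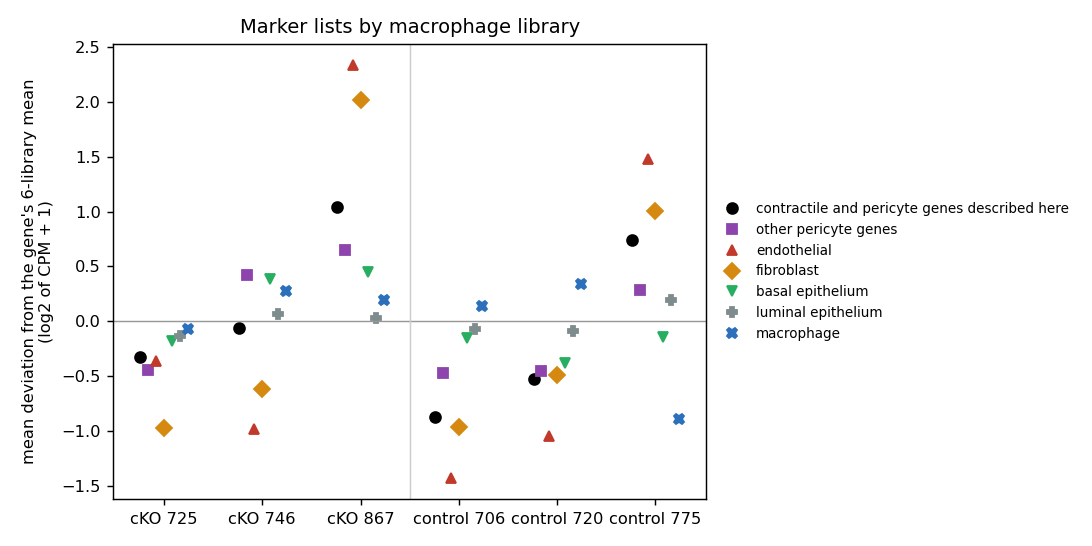
Mean deviation of the genes of each list from their own mean over the 6 macrophage libraries, on the log2(CPM + 1) scale, cKO libraries left and controls right. The described genes (black), endothelial and fibroblast genes are all high in cKO 867 and control 775, whereas macrophage genes are at -0.89 in control 775.

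The genes most like Rgs5 over the 6 macrophage libraries, by the root mean square difference of centred log2 values among 10068 genes, were Cxcl12 (0.40), Col6a3 (0.42) and Col3a1 (0.46), where the spread of Rgs5 itself was 1.88. Cxcl12 held 8.60, 21.8 and 115 CPM in cKO and 2.29, 6.14 and 50.3 CPM in controls. Of the other members, Myh11 was ranked 51 by this distance, Mylk 68, Acta2 105, Tagln 235, Oxtr 472, Trp63 1343, Cnn1 3114 and Mcam 4211. Acta2 was nearest to Plekhf1 (0.21), Zfp955a (0.22) and Slc35c1 (0.24), and Trp63 to Lama5 (0.09), Myorg (0.12) and Rasal2 (0.13), with own spreads of 0.79 and 0.40. These are descriptions over 6 libraries made by the same sort.

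In whole tumors every member listed in both tables but Mcam had a higher mean CPM over all libraries than in sorted cells. The tables were normalized separately, and mice 867 and 775 gave no tumor library. Within cKO the Rgs5 mean was higher in sorted cells, 49.9 against 44.3 CPM in tumors, with sorted cKO 867 at 127 CPM. Again no member passed the test. Acta2 held 180.4 and 123 CPM in cKO and 228 and 128 CPM in controls (152 ± 40.3 and 178 ± 70.6 CPM, SD, n = 2 each). The difference was -0.20 (SE 0.26, limma adjusted p = 0.929), and the groups overlapped. Mylk held 211 and 114 CPM in cKO and 192 and 148 CPM in controls (-0.12, SE 0.26). Tagln held 40.5 and 24.3 CPM in cKO and 51.3 and 38.0 CPM in controls (-0.48, SE 0.33; -0.84 without cKO 725 and -0.12 without cKO 746). Actg2, the enteric smooth muscle actin, was the weakest member, with 2.75 and 1.27 CPM in cKO and 3.25 and 0 CPM in controls (0.50, SE 0.99). Of these 4 genes, every pair of groups overlapped.

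Myh11 and Mcam were lower in both cKO tumors than in both controls, and Cnn1 and Trp63 were higher. Myh11 held 24.3 and 19.8 CPM in cKO and 47.7 and 29.5 CPM in controls, a difference of -0.75 (SE 0.35, interval -1.49 to -0.01, limma unadjusted p = 0.0470, adjusted p = 0.833). Mcam held 16.03 and 12.4 CPM in cKO and 31.8 and 22.7 CPM in controls (-0.88, SE 0.40, interval -1.72 to -0.04, limma unadjusted p = 0.0404, adjusted p = 0.833). Trp63 held 63.0 and 60.3 CPM in cKO and 30.2 and 35.7 CPM in controls. Its means were 61.7 ± 1.91 CPM in cKO and 33.0 ± 3.87 CPM in controls (SD, n = 2 each), a difference of 0.89 (SE 0.28, interval 0.30 to 1.47, limma unadjusted p = 0.00542, adjusted p = 0.767). Cnn1 held 25.2 and 16.05 CPM in cKO and 15.6 and 11.7 CPM in controls (0.54, SE 0.43, limma adjusted p = 0.878; 0.23 without cKO 725 and 0.85 without cKO 746), and the cKO 746 and control 706 values nearly touched. Whether the difference of Trp63 in tumors departs from the -0.07 in macrophages was not tested.

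Oxtr held 64.1 and 69.9 CPM in cKO tumors and 108 and 62.2 CPM in control tumors (-0.29, SE 0.27). Rgs5 held 31.1 and 57.6 CPM in cKO tumors and 46.6 and 48.9 CPM in control tumors (-0.17, SE 0.31), so that both controls lay between the cKO libraries. Control 706 was the highest library for 6 of the 10 genes, and cKO 746 the lowest for 5. The shares over all genes were not computed for these counts.

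**Figure D3:**
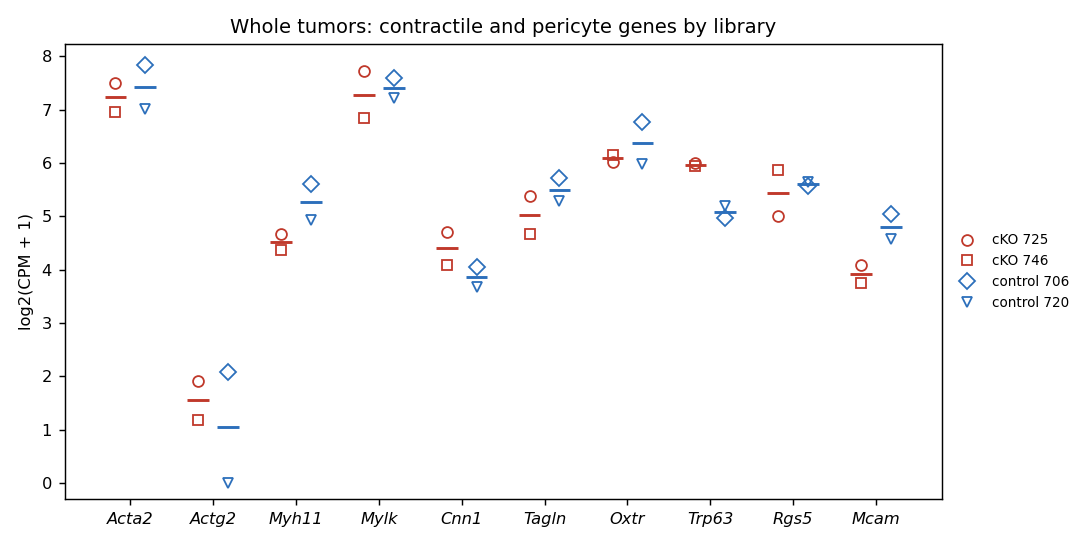
Level of each gene in whole tumors, as log2(CPM + 1), with one point per library (red cKO, left; blue control, right) and bars for group means of 2 libraries. The Trp63 points of the 2 cKO tumors, 63.0 and 60.3 CPM, lie above those of the controls, and the Mcam and Myh11 points lie below.

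All 10 members were tested in tumors, 3 with a positive and 7 with a negative difference, and the median was -0.18, against 0.09 over the 14630 genes tested. None passed the adjusted threshold, which 0% of all genes passed. One member had an unadjusted p under 0.05 as higher in cKO, against 3.90% of all genes, and 2 as lower, against 1.95%. In 2 of 10 members every cKO library was above every control, against 21.2% of all genes, and in 2 of 10 every cKO library was below, against 14.3%. These counts of separated members are near the shares over all genes and are not a result about the members. Leaving out control 720 gave a median of -0.58 and leaving out control 706 gave 0.09.

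**Figure D4:**
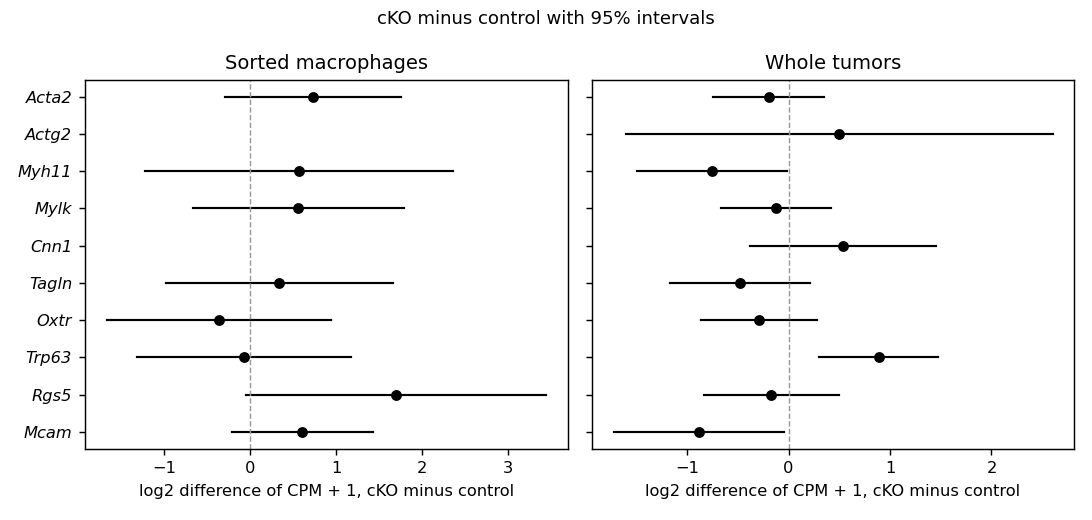
Difference of each gene, cKO minus control, on the log2(CPM + 1) scale, with 95% limma intervals, in macrophages (left) and tumors (right). In tumors the intervals of Trp63 (above 0), Mcam and Myh11 (below 0) leave out 0, while every macrophage interval holds it; no gene passed after adjustment, and only the tumor interval of Trp63 leaves out 0 when limma is run without the trend.

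Fibroblast markers summed to 340.4 and 452 CPM in cKO tumors and 610.5 and 717 CPM in control tumors. Of their 9 differences 8 were negative (median -0.44), while over all genes 56.6% were positive (median 0.09). For 5 of the 9 every cKO tumor was below every control, against 14.3% of all genes. The unadjusted limma p was under 0.05 for 3 as lower in cKO, against 1.95%. None passed adjustment, and the list was not tested as a set. Endothelial markers summed to 81.0 and 109 CPM in cKO and 64.1 and 86.1 CPM in controls. Skeletal muscle markers summed to 69.9 and 12.8 CPM in cKO and 22.2 and 11.3 CPM in controls, and adipocyte markers to 65.0 and 23.5 CPM in cKO and 33.2 and 37.2 CPM in controls, with cKO 725 highest for both. The 8 listed pericyte genes other than the members summed to 267 and 346 CPM in cKO and 213 and 210.4 CPM in controls. Of them Notch3 held 108 and 115 CPM in cKO and 55.2 and 66.5 CPM in controls (0.87, SE 0.23, limma unadjusted p = 0.00173, adjusted p = 0.705), and Anpep held 128 and 191 CPM in cKO and 122 and 108 CPM in controls. In the list of basal epithelial genes, Igfbp5 made 94.8% of the sum, with 21328 and 20814 CPM in cKO and 10143 and 14614 CPM in controls (0.79, SE 0.22, limma unadjusted p = 0.00227, adjusted p = 0.717). The other 12 summed to 903 and 1137 CPM in cKO and 879 and 772 CPM in controls, most of it Itga6, which held 730.3 and 958 CPM in cKO and 740.4 and 594 CPM in controls. Of the 13 basal genes tested, 8 differences were positive and 5 negative. The unadjusted limma p was under 0.05 for 2 as higher in cKO (Igfbp5 and Snai2, at 1.18) and 1 as lower (Cdh3, at -1.39). Of all genes 3.90% and 1.95% did so, and no basal gene passed adjustment. Igfbp5, Itga6, Snai2 and Cdh3 were named after their values were seen. The classic basal keratins were low: Krt5 held 10.4 and 4.52 CPM in cKO and 7.03 and 6.19 CPM in controls, and Krt14 held 3.43 and 3.90 CPM in cKO and 3.66 and 7.94 CPM in controls. Krt17 held 1.65 and 1.53 CPM in cKO and 1.87 and 1.98 CPM in controls. The part of these lists in the member values was not tested.

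The other genes of the contractile program gave no call in either table. Of 20 listed in macrophages 15 were tested, 11 with a positive and 4 with a negative difference (median 0.18), and of 19 tested in tumors 10 were positive and 9 negative (median 0.09). In tumors every cKO library was above every control for 5 of the 19, against 21.2% of all genes. For 4 of the 19 every cKO library was below, against 14.3%. Myl9, the regulatory light chain of smooth muscle myosin, held 0.590, 0 and 0.954 CPM in sorted cKO cells and 0, 1.51 and 0.783 CPM in sorted control cells, and 3.03 and 4.29 CPM in cKO tumors against 5.03 and 2.12 CPM in controls. Tpm1, a tropomyosin that many cells express, held 113, 191 and 231 CPM in sorted cKO cells and 111, 132 and 188 CPM in sorted control cells, and 51.9 and 76.7 CPM in cKO tumors against 74.0 and 76.5 CPM in control tumors. Flna, which crosslinks actin filaments, was chosen after its values were seen as the one such gene with an unadjusted p under 0.05 in tumors; it held 392.5 and 388.6 CPM in cKO and 224 and 259 CPM in controls (0.69, SE 0.18, limma adjusted p = 0.645). Tpm2, another tropomyosin, held 0, 0.150 and 1.51 CPM in sorted cKO cells and 0, 3.87 and 1.30 CPM in sorted control cells, and 5.09 and 0.706 CPM in cKO tumors against 1.43 and 0.0287 CPM in control tumors. Des was not listed in the tumor table.

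Of the regulators of the program 4 were tested in each table and none was called. In tumors 3 of the 4 had every cKO library above every control, against 21.2% of all genes. The median difference was 0.61, against 0.09 over all genes, and the list was not tested as a set. Tead1, which encodes a transcription factor of the Hippo pathway and was named after its values were seen, held 144 and 174 CPM in cKO tumors and 97.97 and 89.0 CPM in control tumors (0.75, SE 0.21, limma unadjusted p = 0.00253, adjusted p = 0.717). Srf held 30.0, 42.7 and 46.7 CPM in sorted cKO cells and 33.0, 33.5 and 23.5 CPM in sorted control cells, and 11.7 and 11.9 CPM in cKO tumors against 5.85 and 7.05 CPM in control tumors (0.78, SE 0.56, limma adjusted p = 0.861). The cofactor Mrtfa held 27.8, 40.5 and 68.6 CPM in sorted cKO cells and 40.4, 43.7 and 15.4 CPM in sorted control cells, and 11.5 and 13.9 CPM in cKO tumors and 7.20 and 10.98 CPM in control tumors. The related Mrtfb held 64.9, 68.1 and 124 CPM in sorted cKO cells and 96.5, 117 and 75.8 CPM in sorted control cells, and 101 and 119 CPM in cKO tumors against 115 and 127 CPM in control tumors. Myocd, the cofactor restricted to muscle, held 0.994 CPM in cKO 867 macrophages, was listed at 0 in the other macrophage libraries and was not listed in the tumor table. Among other pericyte genes, Pdgfrb, the receptor pericytes need for recruitment, held 1.87, 6.30 and 21.3 CPM in sorted cKO cells and 0, 2.45 and 7.65 CPM in sorted control cells, and 9.78 and 9.18 CPM in cKO tumors against 6.47 and 10.4 CPM in controls. Cspg4, the proteoglycan NG2, held 4.52, 17.2 and 17.6 CPM in sorted cKO cells and 10.98, 8.59 and 7.83 CPM in sorted control cells, and 12.8 and 3.62 CPM in cKO tumors against 7.14 and 8.48 CPM in control tumors. Kcnj8, a potassium channel subunit, held 1.33, 1.70 and 4.41 CPM in sorted cKO cells and 0.0695, 0.801 and 1.04 CPM in sorted control cells, with a difference of 1.04 (SE 0.81, limma adjusted p = 0.9998). In tumors it held 1.91 and 4.80 CPM in cKO and 1.49 and 1.32 CPM in controls (0.77, SE 0.88, limma adjusted p = 0.909). In each table every cKO library was above every control, as for 3.78% of all genes in macrophages and 21.2% in tumors. The values were low, with sorted control 706 at the worth of 1 read.

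Per kilobase of exon, Acta2 led in tumors at 75.2 ± 22.5 CPM per kb (SD, n = 4), followed by Tagln at 19.4 ± 5.60, Oxtr at 15.9 ± 4.51, Mylk at 14.7 ± 3.90, Rgs5 at 10.1 ± 2.42, Cnn1 at 6.26 ± 2.08, Mcam at 6.19 ± 2.55, Trp63 at 5.64 ± 2.00, Myh11 at 3.99 ± 1.61 and Actg2 at 1.17 ± 0.947. Only Acta2 over Tagln and Myh11 over Actg2 were steps larger than the summed SDs of the neighbours. In macrophages the order was Acta2 (9.89 ± 5.47 CPM per kb, n = 6), Mcam (8.70 ± 3.50), Rgs5 (7.28 ± 10.7), Tagln (4.87 ± 2.86), Mylk (1.79 ± 1.47), Oxtr (1.70 ± 0.945), Trp63 (0.863 ± 0.271), Myh11 (0.459 ± 0.503) and Cnn1 (0.247 ± 0.394), and no neighbours differed beyond their spread.

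Both libraries came from 4 mice, and the level of a member in sorted cells was set beside that in the tumor of the same mouse. Acta2 in sorted cells was at 11.5% and 17.2% of its tumor level in cKO 725 and 746, and at 3.96% and 6.56% in controls 706 and 720. Rgs5 was at 31.9% and 21.6% in cKO mice and 4.47% and 6.18% in control mice, Trp63 at 6.16% and 15.4% in cKO and 20.2% and 17.0% in controls, and Tagln at 8.76% and 55.8% in cKO and 12.8% and 10.1% in controls. For Acta2 and Rgs5 both cKO mice were above both controls, for Trp63 both were below, and the other members overlapped or tied. Scaled to protein-coding genes, Trp63 overlapped too, at 4.43% and 11.1% in cKO and 14.1% and 10.5% in controls. This is a description with no test. The share of all genes separated in this way was not computed, so it is not a result about the members. Over the 4 mice the medians of Myh11, Mylk and Oxtr were 4.50%, 7.57% and 6.18%. Among the members Mcam was the exception, at 139.8% and 330.4% in cKO and 60.9% and 159% in controls. Luminal epithelial genes in sum were at 164% to 221% in these mice, whereas fibroblast genes were at 10.7% to 31.0%. In sum the other genes of the contractile program were at 96.7% to 122%, the other pericyte genes at 72.6% to 162% and basal epithelial genes at 35.1% to 83.1%. Anpep and Notch3 led the pericyte sum, and Igfbp5 led the basal sum. The tables were normalized separately, so these shares carry no test; scaled to protein-coding genes, Mcam ranged from 42.5% to 237% with a median of 99.5%.

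**Figure D5:**
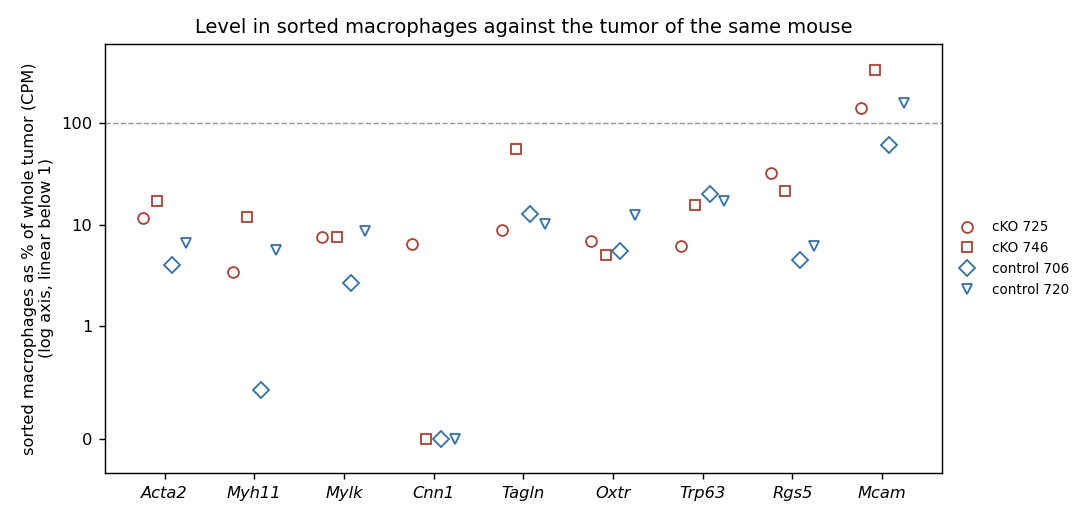
Level of each gene in sorted macrophages as a percent of its level in the tumor of the same mouse (CPM, log axis that is linear below 1), for 2 cKO mice (red) and 2 controls (blue), with a dashed line at 100%. Mcam lies around the line, from 60.9% to 330.4%, and the other genes lie below it.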

How the data were processed

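Reads were aligned with STAR 2.7.8a and processed in Partek against GRCm38 (mm10), per the submitters' processing notes. RNA was depleted of ribosomal RNA, per the labels' protocols. The deposited values are called normalized counts but are log2(CPM + 1), read from the values: 2 to the power of each, minus 1, sums to 1e+06 in every library. The share of low values that were whole reads within a tolerance of 0.1 was 83.8% to 88.8% in macrophage and 83.6% to 86.5% in tumor libraries, too low for a count test. Using limma 3.58.1 (R 4.3.3), a model with group only and eBayes with trend was fitted to each table, keeping genes that averaged 1 CPM or more; p-values were two-sided, Benjamini-Hochberg adjusted over all genes tested, with a threshold of 0.05. A pseudocount of 1 understates changes of weakly read genes. The fit was tested on simulated data. Deposited gene positions did not match GRCm38 (2.19% and 2.29% with the same start), so GENCODE vM21 was used by identifier. Members, and the lists, were chosen with earlier results of these data known. Named were all members, the first 3 genes listed in both tables of the contractile, regulator and pericyte lists, of the basal list (in tumors), and the 3 genes nearest to Acta2, Rgs5 and Trp63. The rule also takes the first 3 genes of the other lists, which are given here in sum. Alternatives were other pseudocounts (0.1, 5), filters, scalings, weights and libraries left out.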

Additional observations from a re-analysis of the deposited data

How the results depend on the processing

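No member passed the adjusted threshold under any setting run, in either table. Over all genes in macrophages, 0 passed, but 1 did without cKO 867 (Ccdc152), 1 without control 706 (Rps13-ps1), 3 without control 775 (Amd2, Sparc, Gm4735) and 2 in the 4 mice with a tumor library (Ccdc152, Gm4735), named after their values were seen; leaving out a library gave 0 to 3. In those 4 mice Trp63 in macrophages turned to 0.0023. Leaving out 1 library at a time turned the sign of the log2 difference in macrophages for Myh11 (-0.16 to 1.199), Mylk (-0.10 to 1.15), Tagln (-0.045 to 0.94) and Trp63 (-0.28 to 0.26), and in tumors for Acta2 (-0.61 to 0.22), Mylk (-0.57 to 0.32), Oxtr (-0.68 to 0.10), Rgs5 (-0.60 to 0.26) and Actg2 (-0.54 to 1.55); the cause was not tested. Trp63 in tumors stayed between 0.77 and 1.004, Mcam between -1.12 and -0.65 and Myh11 between -1.09 and -0.41. A tumor group with a library left out holds 1 sample, assumed to vary like the other group. Scaling to protein-coding genes shifted the median of all genes by -0.11 in tumors. Actg2 in tumors and Myh11 in macrophages have no value at a mean of at least 5 CPM. The unadjusted p of Rgs5 in macrophages came under 0.05 with no filter on low values, without cKO 725, without cKO 746, without control 775 and in the 4 mice, that of Acta2 without control 775 and that of Mcam without control 720. In tumors Trp63 kept an unadjusted p under 0.05 under every setting, while Mcam and Myh11 lost it without the trend and without cKO 725, cKO 746 or control 706, and Myh11 also with a pseudocount of 0.1; Oxtr gained it without control 720. No paired analysis was possible because the labels name no partners for the size-matched tumors, and mouse numbers are shared only between the macrophage and tumor libraries of one genotype.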
